A study of Mus musculus with 6 samples.

Results

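The desmosome genes described here are 10 mouse genes that encode cadherins and plaque proteins of desmosomes and the corneodesmosome protein corneodesmosin. They were chosen by name, as the rows of the count files with the symbols Dsg1a, Dsg2, Dsg3, Dsc1, Dsc2, Dsc3, Dsp, Jup, Pkp1 and Cdsn, and make up 10 of 34590 gene symbols. RNA was sequenced from skin of 3 Tnip1-/- mice and 3 Tnip1+/+ mice, separate animals on a C57BL/6 background. Both genotypes received imiquimod, a Toll-like receptor agonist that inflames mouse skin, on the skin surface for 2 days. Tnip1 encodes a ubiquitin-binding protein that restrains NF-kB signalling. Untreated skin was not analysed here, so each comparison is between genotypes under imiquimod, and how the Tnip1 allele was made, the sex and the age of the mice are not given in the sources used here.

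Desmosomes are junctions that rivet neighbouring keratinocytes together. Desmogleins and desmocollins reach across the gap between cells, plakoglobin and plakophilins bind their tails inside the cell, and desmoplakin ties this plaque to keratin filaments. In stratified epidermis the cadherins follow the layers: desmoglein 3 and desmocollin 3 are typical of the lower layers, desmoglein 1 and desmocollin 1 of the upper layers, and corneodesmosin coats the junctions that hold cornified cells until proteases release them.

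All 10 genes were detected in every library and were tested. In Tnip1-/- skin 6 rose (Dsg3, Dsc2, Dsc1, Cdsn, Jup and Pkp1), Dsg2 fell, and Dsg1a, Dsc3 and Dsp did not pass the test. Calls here mean a p under 0.05 after Benjamini-Hochberg adjustment over 16691 genes, from the quasi-likelihood test of edgeR. So many genes differed between these genotypes that 45.1% of all tested genes were called, 22.3% as higher and 22.7% as lower. The median log2 fold change, Tnip1-/- over Tnip1+/+, was 0.95 over the 10 desmosome genes and -0.04 over all tested genes. Groups did not overlap in 6 of the 10 genes, and in 59.8% of all tested genes. Calls were mixed among both the lower-layer and the upper-layer cadherins, since each class held a gene that rose and a gene that did not pass. Differences between genes of a class were not tested, and the upper-layer gene that did not pass, Dsg1a, is a single copy of desmoglein 1.

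Gene counts summed to 19529970 to 25864730 in the Tnip1-/- libraries and to 24701074 to 31005554 in the Tnip1+/+ libraries. Levels are CPM, counts scaled to a common library size with TMM factors, and 3 counts equal 0.127 to 0.157 CPM in Tnip1-/- libraries and 0.09 to 0.111 CPM in Tnip1+/+ libraries. Tnip1 itself averaged 1.81 ± 0.23 CPM in Tnip1-/- skin and 26.4 ± 1.55 CPM in Tnip1+/+ skin (SD, n = 3 each). Keratins marked the tissue as epidermis-containing skin, but not in equal amounts: Krt14, the basal keratin, averaged 11550 ± 2098 CPM in Tnip1-/- skin and 1985 ± 771.6 CPM in Tnip1+/+ skin. Krt15, another basal keratin, went the other way with 63.8 ± 21.7 CPM in Tnip1-/- skin and 538.8 ± 175.2 CPM in Tnip1+/+ skin (log2 fold change -3.08), and Dst, a hemidesmosome plakin, fell with -1.15. Krt10, a keratin of the suprabasal layers, fell with a log2 fold change of -0.95, whereas its partner Krt1 rose by 1.34. The Krt10 call was lost without Tnip1-/- replicate 1 or 3 or Tnip1+/+ replicate 1 or 3, with log2 fold changes of -1.06 to -0.69. Summed basal markers ranged from 14820 to 19610 CPM in Tnip1-/- skin and from 4138 to 8043 CPM in Tnip1+/+ skin, with 4 of 9 higher and 2 lower, and Krt14 made up most of the sum in Tnip1-/- skin. For suprabasal markers (1 of 4 higher, 1 lower) the sums were 7040 to 9352 CPM in Tnip1-/- skin and 7116 to 8372 CPM in Tnip1+/+ skin. For granular and cornified markers (3 of 9 higher, 2 lower) they were 4491 to 10320 CPM in Tnip1-/- skin and 5187 to 7639 CPM in Tnip1+/+ skin. Hrnr, which did not pass, made up most of that sum in Tnip1-/- skin. Behind the sum, markers moved in opposite directions, with log2 fold changes of 4.6 for Tgm3 and -4.3 for Lce1m. Summed markers of other tissues of the biopsy also differed between genotypes. Skeletal muscle markers summed to 2479 to 4143 CPM in Tnip1-/- skin against 8114 to 14380 CPM in Tnip1+/+ skin (7 of 7 lower), and adipocyte markers to 72.94 to 1281 CPM in Tnip1-/- skin against 1979 to 3834 CPM in Tnip1+/+ skin (2 of 7 lower). The low adipocyte sum was that of Tnip1-/- replicate 2 alone, with 1281 and 1111 CPM in Tnip1-/- replicates 1 and 3. Of the 7 adipocyte markers 5 did not pass, and of all tested genes 22.7% were called lower. Neutrophil markers summed to 83.23 to 126.6 CPM in Tnip1-/- skin against 10.55 to 16.86 CPM in Tnip1+/+ skin (5 of 5 tested higher). In bulk skin, more cells of a type and more RNA per cell cannot be told apart, and the part of these shifts in the results on desmosome genes was not tested.

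Among the lower-layer cadherins, Dsg3 showed the largest change of all 10 genes, except that Dsc2 changed more when Tnip1+/+ replicate 2 was left out (log2 fold changes of 1.68 for Dsg3 and 1.92 for Dsc2). Desmoglein 3 is the desmoglein of the deep epidermis and of mucosa, and a target of autoantibodies in human pemphigus vulgaris. Dsg3 stood at 484.2, 318.7 and 313.0 CPM in Tnip1-/- replicates 1, 2 and 3, against 131.1, 84.34 and 100.9 CPM in Tnip1+/+ replicates 1, 2 and 3. Every Tnip1-/- library lay well above every Tnip1+/+ library, and Tnip1-/- replicate 1 stood highest. The mean was 371.9 ± 97.2 CPM in Tnip1-/- skin and 105.5 ± 23.7 CPM in Tnip1+/+ skin (SD, n = 3 each), a log2 fold change of 1.82 (SE 0.24, edgeR adjusted p = 0.00194), or 3.53-fold.

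Dsg2 went the other way, from a much lower level. Desmoglein 2 is the widespread desmoglein of simple epithelia and heart, and is scarce in interfollicular epidermis. Its level was 13.4, 19.2 and 16.3 CPM in Tnip1-/- skin, against 21.9, 22.3 and 25.5 CPM in Tnip1+/+ skin. The groups did not overlap, but Tnip1-/- replicate 2 came close to the Tnip1+/+ libraries. Dsg2 fell with a log2 fold change of -0.51 (SE 0.16, edgeR adjusted p = 0.0366). The call did not hold with fewer libraries: leaving out Tnip1-/- replicate 1 or 3, or any of the Tnip1+/+ replicates, ended it, with log2 fold changes of -0.54 to -0.38 and edgeR adjusted p of 0.0584 to 0.108. An antisense gene, Gm16090, overlaps 3.99% of the Dsg2 exon bases, and reads from it could not be told apart without a stated strand setting.

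Dsc2, the desmocollin found in nearly all desmosome-bearing tissues, was the most variable of the 10 genes. It stood at 120.8, 43.3 and 71.6 CPM in Tnip1-/- skin, against 19.1, 46.7 and 22.3 CPM in Tnip1+/+ skin. The groups overlapped, since Tnip1+/+ replicate 2 lay above Tnip1-/- replicate 2, and the coefficient of variation was 49.9% in Tnip1-/- skin and 51.4% in Tnip1+/+ skin. Dsc2 rose 2.67-fold (SE 0.46 on the log2 scale, edgeR adjusted p = 0.0408). Leaving out Tnip1-/- replicate 1 or 3, or Tnip1+/+ replicate 1 or 3, ended the call, with log2 fold changes of 0.975 to 1.49 and edgeR adjusted p of 0.0719 to 0.121.

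Dsc3, the desmocollin that basal keratinocytes depend on for adhesion, had a smaller fold change than Dsg3. Its level was 1038, 1247 and 1361 CPM in Tnip1-/- skin, against 1083, 739.4 and 1058 CPM in Tnip1+/+ skin. Tnip1-/- replicate 1 fell among the Tnip1+/+ libraries, so the groups overlapped, and the log2 fold change of 0.34 (SE 0.20) did not pass the test (edgeR adjusted p = 0.197).

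**Figure D1:**
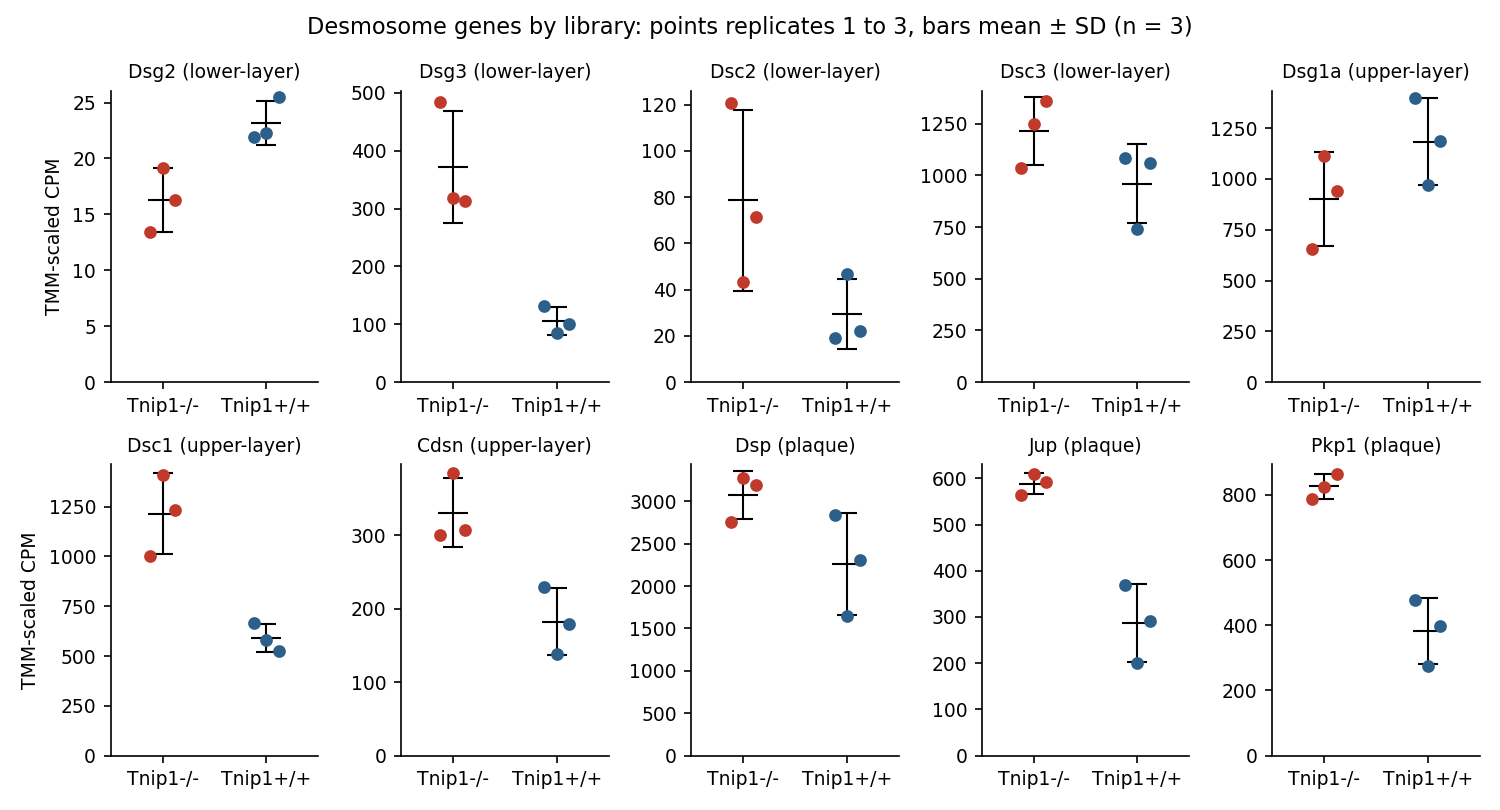
TMM-scaled CPM (vertical axes, from 0) of the 10 desmosome genes in each library, with Tnip1-/- left and Tnip1+/+ right in each panel; points are replicates 1 to 3 and bars the mean ± SD (n = 3 each). Dsg3, Dsc1, Cdsn, Jup and Pkp1 lay higher in every Tnip1-/- library than in any Tnip1+/+ library, Dsg2 lay lower, and Dsc2, Dsc3, Dsg1a and Dsp overlapped.

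Of the upper-layer genes, Dsc1 and Cdsn rose and Dsg1a did not pass. Desmocollin 1 is the desmocollin of the spinous and granular layers. Dsc1 stood at 1001, 1407 and 1235 CPM in Tnip1-/- skin, against 664.6, 579.6 and 524.2 CPM in Tnip1+/+ skin. The lowest Tnip1-/- library lay clear of the highest Tnip1+/+ library. Dsc1 had a log2 fold change of 1.04 (SE 0.18, edgeR adjusted p = 0.00456), or 2.06-fold.

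Corneodesmosin is secreted by granular keratinocytes and covers the outer face of desmosomes as cells cornify. Cdsn stood at 300.1, 384.4 and 306.4 CPM in Tnip1-/- skin, against 229.4, 138.1 and 179.1 CPM in Tnip1+/+ skin. The groups did not overlap, with Tnip1+/+ replicate 1 nearest to the Tnip1-/- libraries. The log2 fold change was 0.86 (SE 0.21, edgeR adjusted p = 0.0146), or 1.81-fold.

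Dsg1a encodes a form of desmoglein 1, the main upper-layer desmoglein and, in humans, the target of autoantibodies in pemphigus foliaceus. Its level was 653.9, 1111 and 942.3 CPM in Tnip1-/- skin, against 1397, 968.7 and 1188 CPM in Tnip1+/+ skin. Tnip1-/- replicate 2 lay above Tnip1+/+ replicate 2, so the groups overlapped, and the log2 fold change of -0.39 (SE 0.24) did not pass (edgeR adjusted p = 0.208).

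Mice carry several closely related copies of the desmoglein 1 gene, and the counts of the copies differed. Dsg1b, which is not among the 10 genes, stood at 935.6, 1067 and 1183 CPM in Tnip1-/- skin, against 428.5, 300.3 and 364.2 CPM in Tnip1+/+ skin. The groups were far apart, and Dsg1b rose with a log2 fold change of 1.54 (SE 0.18, edgeR adjusted p = 0.00136). Within a library, the ratio of Dsg1b to Dsg1a counts was 1.43, 0.96 and 1.26 in Tnip1-/- skin, against 0.307, 0.310 and 0.307 in Tnip1+/+ skin. The ratio hardly varied among the Tnip1+/+ libraries and was higher in each Tnip1-/- library; it was chosen after the values were seen and is given without a test. Summed over Dsg1a, Dsg1b and Dsg1c, the level was 1613, 2210 and 2158 CPM in Tnip1-/- skin, against 1870, 1298 and 1589 CPM in Tnip1+/+ skin. The sums overlapped, and fitted as a single gene they had a log2 fold change of 0.33, with the sign opposite to that of Dsg1a alone, and did not pass (edgeR adjusted p = 0.226). The copies can share reads: of all 100-base windows of their exons, 24.6% in Dsg1a, 32.8% in Dsg1b and 13.9% in Dsg1c also occur in another copy, and how such reads were counted is not given in the sources used here. The split between Dsg1a and Dsg1b is uncertain for that reason. No such window was shared by the other 9 genes.

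The balance of upper-layer to lower-layer cadherin within a library, which needs no library size, moved in opposite directions in the desmoglein and desmocollin families. The ratio of Dsg1a to Dsg3 counts was 1.35, 3.49 and 3.01 in Tnip1-/- skin, against 10.6, 11.5 and 11.8 in Tnip1+/+ skin. Each Tnip1-/- library lay far below the Tnip1+/+ libraries, which were nearly alike. On the log2 scale the ratio averaged 1.27 ± 0.74 in Tnip1-/- skin and 3.50 ± 0.08 in Tnip1+/+ skin (SD, n = 3 each), a difference of -2.22 with p = 0.1 in a two-sided exact permutation test, the smallest p that 3 against 3 libraries allow. With Dsg1a, Dsg1b and Dsg1c summed the difference was -1.48. For Dsc1 to Dsc3, the ratio was 0.965, 1.13 and 0.908 in Tnip1-/- skin, against 0.614, 0.784 and 0.496 in Tnip1+/+ skin. Here each Tnip1-/- library lay above the Tnip1+/+ libraries. The log2 ratio averaged -0.01 ± 0.16 in Tnip1-/- skin and -0.69 ± 0.33 in Tnip1+/+ skin (SD, n = 3 each), a difference of 0.68, again with the smallest possible p of 0.1 in the exact permutation test. With 2 such ratios tested, neither could pass a threshold of 0.05 at this number of mice.

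Of the plaque genes, Jup and Pkp1 rose and Dsp did not pass. Plakoglobin, the product of Jup, is an armadillo protein that binds the tails of desmosomal cadherins and also occurs in adherens junctions. Jup stood at 563.9, 608.3 and 591.9 CPM in Tnip1-/- skin, against 368.2, 200.1 and 291.1 CPM in Tnip1+/+ skin. The Tnip1-/- libraries lay close together and above all Tnip1+/+ libraries, with a coefficient of variation of 3.81% in Tnip1-/- skin against 29.4% in Tnip1+/+ skin. The log2 fold change was 1.04 (SE 0.22, edgeR adjusted p = 0.00948), or 2.05-fold.

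Plakophilin 1, an armadillo protein that recruits desmoplakin and strengthens adhesion in upper epidermis, rose by a similar amount. Pkp1 stood at 788.4, 825.7 and 865.2 CPM in Tnip1-/- skin, against 476.1, 274.6 and 398.5 CPM in Tnip1+/+ skin. Again the Tnip1-/- libraries were close to each other (coefficient of variation 4.64% in Tnip1-/- skin against 26.5% in Tnip1+/+ skin) and the groups did not overlap. Its log2 fold change was 1.11 (SE 0.21, edgeR adjusted p = 0.00624), or 2.16-fold.

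Desmoplakin, the plakin that anchors keratin filaments in every desmosome, was the most abundant of the 10 in counts. Dsp stood at 2755, 3271 and 3198 CPM in Tnip1-/- skin, against 2844, 1645 and 2304 CPM in Tnip1+/+ skin. Tnip1+/+ replicate 1 lay above Tnip1-/- replicate 1, so the groups overlapped, and the log2 fold change of 0.44 (SE 0.23) did not pass (edgeR adjusted p = 0.159). Gm10129, annotated on the opposite strand, overlaps 5.17% of its exon bases. Tnip1+/+ replicate 2 was the lowest library of its group for 7 of the 10 desmosome genes, among them Dsp, Jup, Pkp1, Dsg3 and Cdsn. That library also had the highest summed muscle markers (14380 CPM) and adipocyte markers (3834 CPM), whose part in the spread was not tested; without it, the same 6 genes were still called higher and Dsg2 was no longer called.

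Promoter sequence is shown for the 3 genes among Jup, Pkp1, Cdsn and Dsp that had an entry in RefSeq's promoter table (build GRCm38.p6), because Jup and Cdsn rose and Dsp did not pass. Each window runs 5′ to 3′ on the gene's strand, from 250 bases before the start site to 50 bases from it, and capitals mark matches to the GC box (GGGCGG) or the E-box (CANNTG), searched on both strands. Cdsn has 2 entries in that table, and the one shown starts at the gene start of the GENCODE annotation; the other, 5′ of it, holds a single E-box at -150. The Jup window is chr11:100397741-100398040 (minus strand), the Dsp window chr13:38151044-38151343 (plus strand) and the Cdsn window chr17:35551878-35552177 (plus strand).
Jup: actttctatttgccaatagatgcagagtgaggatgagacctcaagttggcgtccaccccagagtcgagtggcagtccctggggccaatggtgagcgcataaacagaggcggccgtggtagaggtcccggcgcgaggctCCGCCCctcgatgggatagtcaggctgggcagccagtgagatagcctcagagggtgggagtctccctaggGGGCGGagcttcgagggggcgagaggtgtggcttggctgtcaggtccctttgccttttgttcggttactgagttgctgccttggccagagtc
Dsp: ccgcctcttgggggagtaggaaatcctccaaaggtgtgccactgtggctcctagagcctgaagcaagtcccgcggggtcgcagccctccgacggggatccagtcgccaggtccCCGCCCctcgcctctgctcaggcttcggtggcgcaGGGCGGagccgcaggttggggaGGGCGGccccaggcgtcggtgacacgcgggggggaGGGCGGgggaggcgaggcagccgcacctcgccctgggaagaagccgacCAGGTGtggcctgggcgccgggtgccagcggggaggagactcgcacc
Cdsn: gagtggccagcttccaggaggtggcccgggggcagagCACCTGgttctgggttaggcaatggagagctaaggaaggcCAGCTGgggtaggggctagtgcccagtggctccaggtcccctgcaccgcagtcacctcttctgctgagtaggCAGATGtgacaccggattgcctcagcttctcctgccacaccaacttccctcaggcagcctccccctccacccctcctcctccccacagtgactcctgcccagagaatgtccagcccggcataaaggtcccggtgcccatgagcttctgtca
Counted from the start site at 0, the Jup window holds GC boxes at -112 and -42, and the Dsp window holds GC boxes at -137, -102, -80 and -45 and an E-box at 3. The Cdsn window shown holds E-boxes at -213, -173 and -101 and no GC box match. Among 32851 RefSeq promoter windows of the same length, 35.7% hold the GC box and 72.3% hold the E-box, so these matches are common. Searches for the TATA box (TATAAA, in 13.6% of promoters), the AP-1 site (TGANTCA, 7.81%), an NF-kB-type site (GGGNNTTCC, 5.82%) and the KLF-type CACCC box (CCACACCC, 3.56%) matched none of these 3 windows; the matches describe letters only.

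Levels were compared between genes after division by exon length, as CPM per kilobase of exon. In Tnip1-/- skin the order from high to low was Dsp (318.3 ± 28.9), Dsc1 (240.7 ± 40.4), Dsc3 (224.9 ± 30.3), Pkp1 (164.5 ± 7.64), Dsg1a (158.7 ± 40.7), Cdsn (123.3 ± 17.5), Jup (91.4 ± 3.48), Dsg3 (53.3 ± 13.9), Dsc2 (14.9 ± 7.44) and Dsg2 (1.97 ± 0.35), as mean ± SD with n = 3. Among neighbours in that order, Dsc1 and Dsc3, Pkp1 and Dsg1a, and Dsg1a and Cdsn had overlapping ranges of 1 SD around the mean, and Dsg1a also overlapped Dsc3. In Tnip1+/+ skin the order began with Dsp (234.4 ± 62.2), Dsg1a (208.3 ± 37.6), Dsc3 (177.7 ± 35.5), Dsc1 (116.8 ± 14.02) and Pkp1 (76.2 ± 20.2). It went on with Cdsn (68.0 ± 17.1), Jup (44.5 ± 13.1), Dsg3 (15.1 ± 3.40), Dsc2 (5.57 ± 2.86) and Dsg2 (2.81 ± 0.24). There the ranges of 1 SD overlapped among Dsp, Dsg1a and Dsc3, among Pkp1, Cdsn and Jup, and between Dsc2 and Dsg2. Dsc1 ranked 2 in Tnip1-/- skin and 4 in Tnip1+/+ skin, and Dsg1a ranked 5 in Tnip1-/- skin and 2 in Tnip1+/+ skin, with the limit on the desmoglein 1 copies given above. From Cdsn down, the order was the same in both genotypes.

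Shares within each family, also per kilobase, showed which paralogue made up its transcripts. Dsg3 made up 16.2%, 8.78% and 8.64% of desmoglein transcripts in Tnip1-/- skin, against 4.87%, 4.51% and 4.41% in Tnip1+/+ skin. Dsg1a made up 26.9%, 37.6% and 31.9% in Tnip1-/- skin, against 63.6%, 63.6% and 63.8% in Tnip1+/+ skin, and Dsg1b 55.2%, 51.7% and 57.5% in Tnip1-/- skin against 28.0%, 28.3% and 28.0% in Tnip1+/+ skin. The split between Dsg1a and Dsg1b carries the limit on shared reads given above. The desmoglein 1 copies together remained the bulk of the family in every library, while Dsg2 stayed at about 1% or less in each. Among desmocollins, Dsc1 made up 48.0%, 53.9% and 48.0% in Tnip1-/- skin, against 39.2%, 44.1% and 34.2% in Tnip1+/+ skin, and Dsc2 was a minor part throughout (1.58% to 5.54% in Tnip1-/- skin against 1.08% to 3.40% in Tnip1+/+ skin). The Pkp1 share of plakophilins overlapped between genotypes, with 63.9%, 64.8% and 68.0% in Tnip1-/- skin against 63.7%, 68.0% and 65.5% in Tnip1+/+ skin. Family sums averaged 489.0 ± 53.0 CPM per kilobase in Tnip1-/- skin and 327.2 ± 59.1 in Tnip1+/+ skin for desmogleins. They were 480.6 ± 58.2 in Tnip1-/- skin and 300.1 ± 37.8 in Tnip1+/+ skin for desmocollins, and 250.9 ± 4.47 in Tnip1-/- skin and 116.7 ± 34.4 in Tnip1+/+ skin for plakophilins (SD, n = 3 each). The groups did not overlap in any of the families, but neither did they in 59.8% of all tested genes taken singly.

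**Figure D2:**
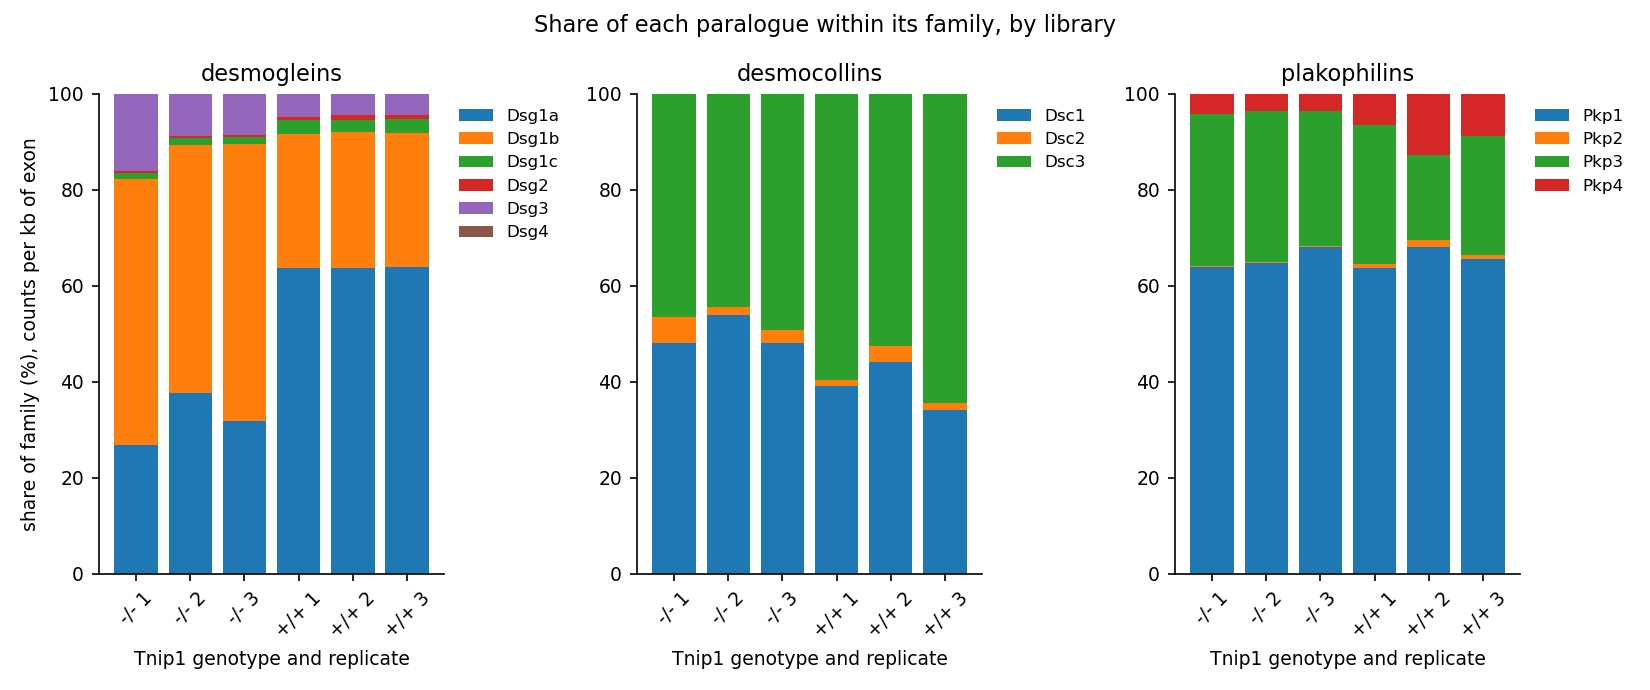
Share of each paralogue (vertical axis, percent of the family's counts per kilobase of exon) in each library, Tnip1-/- replicates left and Tnip1+/+ replicates right, for desmogleins, desmocollins and plakophilins. Dsg3 made up 8.64% to 16.2% of desmoglein transcripts in Tnip1-/- skin against 4.41% to 4.87% in Tnip1+/+ skin, and Dsg1b took a larger and Dsg1a a smaller share in each Tnip1-/- library. The split between Dsg1a and Dsg1b is uncertain because the copies can share reads.

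Counts were also set against Cdh1, the epithelial cadherin of adherens junctions, in the same library, which needs no library size. The direction was kept for all genes but Dsc3, while Dsg1a, which overlapped between genotypes in CPM, no longer did. Cdh1 averaged 248.1 ± 15.4 CPM in Tnip1-/- skin and 191.7 ± 45.1 CPM in Tnip1+/+ skin (SD, n = 3 each) and did not pass (log2 fold change 0.37, edgeR adjusted p = 0.139). Its groups did not overlap, however, with every Tnip1-/- library above every Tnip1+/+ library, so each ratio also carries the difference in Cdh1. As log2 ratios to Cdh1, the Tnip1-/- mean minus the Tnip1+/+ mean was 1.41 for Dsg3, 0.75 for Pkp1, 0.68 for Jup, 0.64 for Dsc1 and 0.48 for Cdsn. These 5 were higher in each Tnip1-/- library than in any Tnip1+/+ library. Dsg2 (-0.92) and Dsg1a (-0.81) were lower in each Tnip1-/- library. For Dsg1a the log2 ratios were 1.47, 2.07 and 1.95 in Tnip1-/- skin, against 2.63, 2.79 and 2.51 in Tnip1+/+ skin. The Dsg1a ratio covers a single copy of desmoglein 1, with the limit on shared reads given above. Dsg1b, another copy, rose (log2 fold change 1.54), and the summed copies, which overlapped between genotypes in CPM, were not set against Cdh1. Dsp (0.07) and Dsc3 (-0.05) differed little between genotypes and overlapped, and Dsc2 (1.01) overlapped too. These ratios are descriptions with no test. In CPM, 59.8% of all tested genes did not overlap, and the share for ratios to Cdh1 was not computed.

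**Figure D3:**
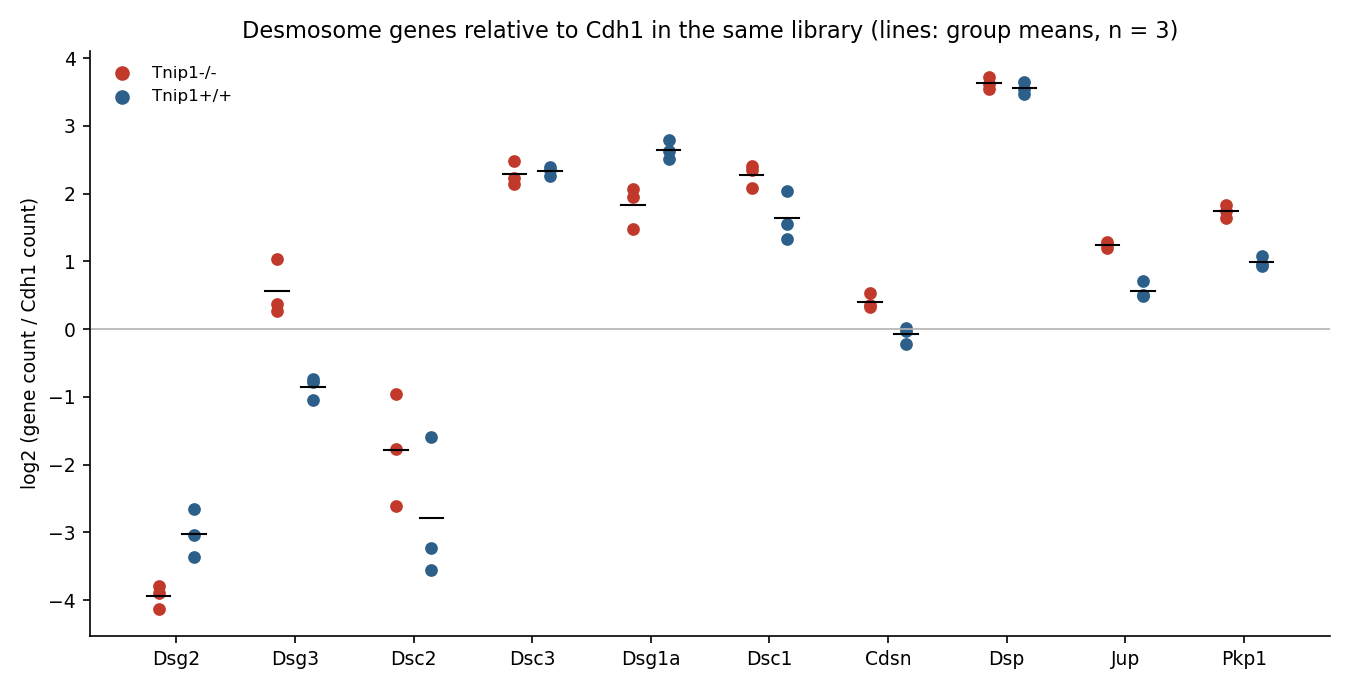
Log2 ratio of each desmosome gene's count to the Cdh1 count in the same library (vertical axis), with Tnip1-/- points left and Tnip1+/+ points right for each gene and lines at the group means (n = 3 each). Dsg3, Dsc1, Cdsn, Jup and Pkp1 lay higher and Dsg2 and Dsg1a lower in Tnip1-/- libraries without overlap, while Dsc2, Dsc3 and Dsp overlapped. The Dsg1a count is uncertain because the copies can share reads, and the summed copies, not shown, overlapped between genotypes.

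Of 8 other desmosome genes tested on a list of 9, 3 rose (Dsg1b, Pkp3 and Perp), Pkp2 fell and 4 did not pass, with a median log2 fold change of 0.35. The share called, 50%, is near the 45.1% of all tested genes. Pkp3, a plakophilin found through all living layers of the epidermis, averaged 274.9 ± 15.5 CPM in Tnip1-/- skin and 105.1 ± 52.4 CPM in Tnip1+/+ skin (SD, n = 3 each), a log2 fold change of 1.39 (SE 0.36, edgeR adjusted p = 0.0191). Pkp2, the plakophilin of heart and simple epithelia, stood at 2.37, 2.97 and 3.13 CPM in Tnip1-/- skin, against 5.58, 6.76 and 5.59 CPM in Tnip1+/+ skin. The groups did not overlap and Pkp2 fell with a log2 fold change of -1.08 (SE 0.20, edgeR adjusted p = 0.00596). Perp, a tetraspan membrane protein needed for desmosome assembly in mouse skin, averaged 2276 ± 287.2 CPM in Tnip1-/- skin and 1334 ± 304.5 CPM in Tnip1+/+ skin (log2 fold change 0.77, edgeR adjusted p = 0.026). Its call was lost without Tnip1-/- replicate 2 or 3 or Tnip1+/+ replicate 3, with log2 fold changes of 0.77, 0.70 and 0.82. The plakins Evpl and Ppl, which also enter the cornified envelope, had log2 fold changes of 0.80 (edgeR adjusted p = 0.0825) and -0.07 (0.789) and did not pass, nor did Pkp4 (-0.07, edgeR adjusted p = 0.604) or Dsg1c (-0.35, edgeR adjusted p = 0.189). Evpl passed without Tnip1+/+ replicate 1, with a log2 fold change of 1.24, and on all libraries with the DESeq2 Wald test (adjusted p = 0.0362). Dsg4, a desmoglein of the hair shaft, was at 0 to 0.105 CPM in Tnip1-/- skin and 0.068 to 0.666 CPM in Tnip1+/+ skin, too low to test. Hair follicle markers were likewise low, at a sum of 10.99 to 14.89 CPM in Tnip1-/- skin against 17.13 to 131.5 CPM in Tnip1+/+ skin, and Tnip1+/+ replicate 3 was highest for both.

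**Figure D4:**
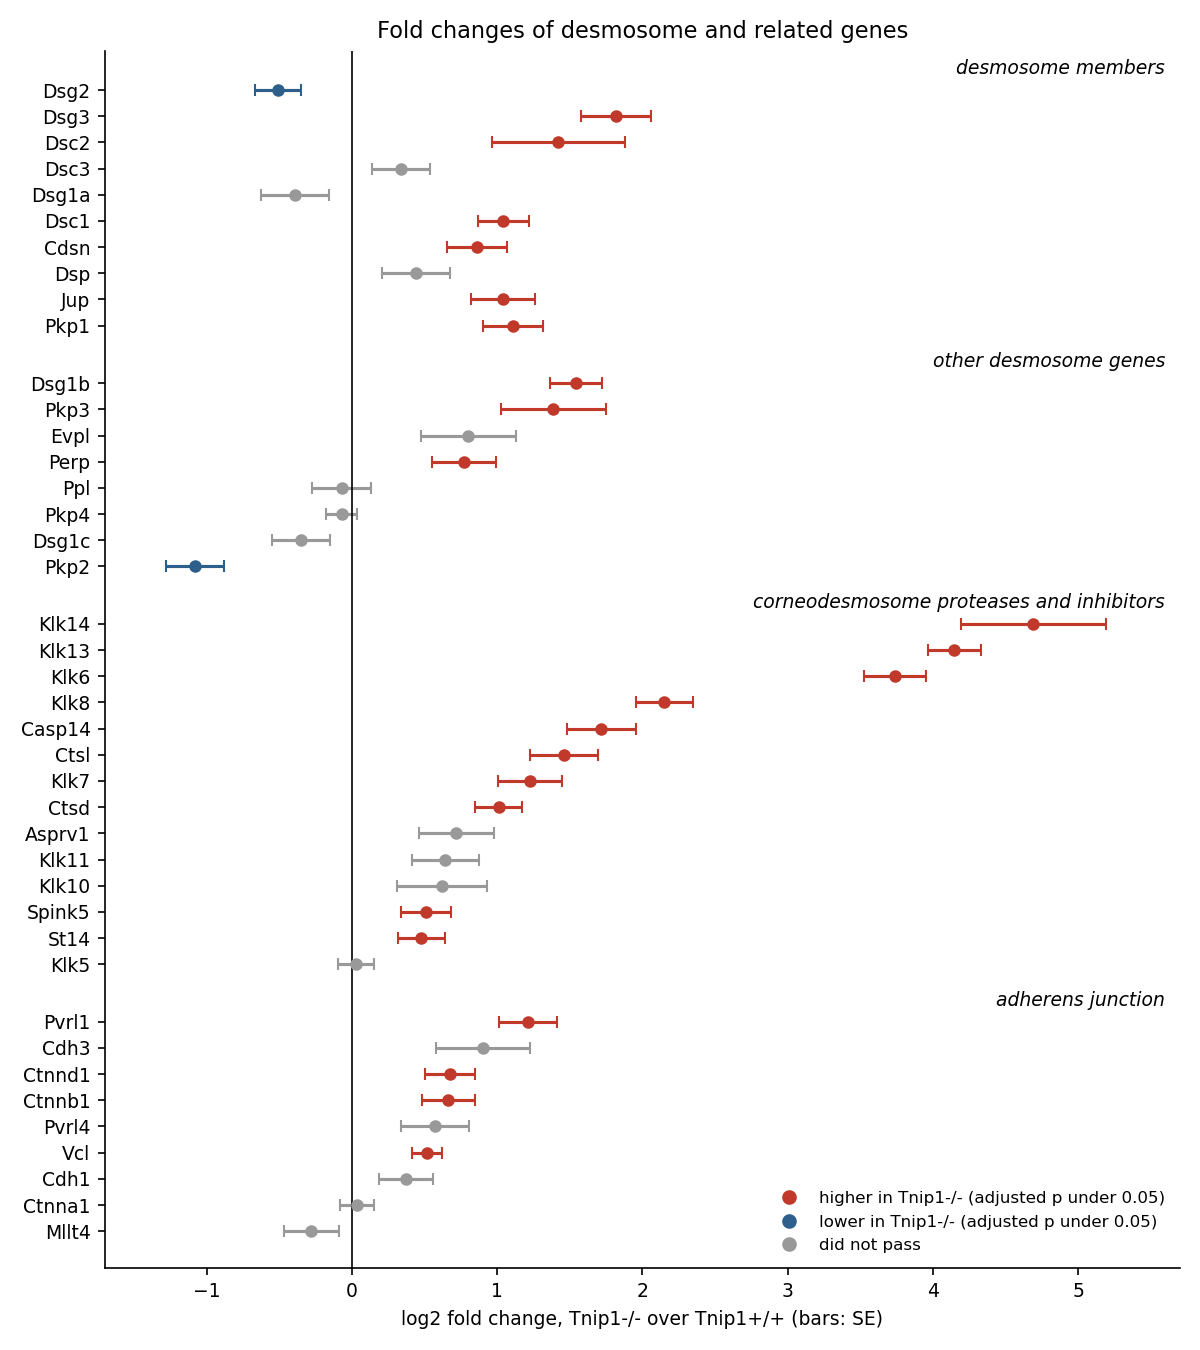
Log2 fold change, Tnip1-/- over Tnip1+/+ (horizontal axis), with its SE (bars) for the desmosome genes, other desmosome genes, corneodesmosome proteases and inhibitors, and adherens junction genes; red marks genes called higher in Tnip1-/-, blue genes called lower and grey genes that did not pass. Among the 10 desmosome genes Dsg3 had the largest value, 1.82, and Klk14, Klk13, Klk6 and Klk8 exceeded it at 4.69, 4.15, 3.74 and 2.15.

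Several genes that act on corneodesmosomes had larger fold changes than any of the 10 desmosome genes. Of 14 tested on a list of 15 proteases and inhibitors, 10 rose in edgeR's test, 0 fell (also 0 at an unadjusted p under 0.05, with the DESeq2 Wald test and with voom) and 4 did not pass, with a median log2 fold change of 1.12. The share called was 71.4%, all of it higher, against 45.1% of all tested genes in either direction (22.3% higher and 22.7% lower). With library totals or upper-quartile factors, 8 were called higher. The list was written with earlier results on skin kallikreins known. Klk13, Klk6, Klk14 and Klk8 are kallikreins, secreted serine proteases of the upper epidermis. Klk6 averaged 868.6 ± 203.7 CPM in Tnip1-/- skin and 65.0 ± 6.08 CPM in Tnip1+/+ skin (SD, n = 3 each), a log2 fold change of 3.74 (edgeR adjusted p = 0.000163). Klk13 averaged 37.0 ± 3.45 CPM in Tnip1-/- skin against 2.08 ± 0.39 CPM in Tnip1+/+ skin (log2 fold change 4.15). Klk14 averaged 12.3 ± 2.87 CPM in Tnip1-/- skin against 0.458 ± 0.313 CPM in Tnip1+/+ skin (log2 fold change 4.69), with only 3 to 24 counts per Tnip1+/+ library. Klk8 averaged 153.7 ± 20.8 CPM in Tnip1-/- skin against 34.6 ± 7.87 CPM in Tnip1+/+ skin (log2 fold change 2.15). The best known corneodesmosome-cleaving pair differed: Klk7 averaged 1746 ± 320.7 CPM in Tnip1-/- skin against 745.4 ± 160.2 CPM in Tnip1+/+ skin (log2 fold change 1.23, edgeR adjusted p = 0.00542), whereas Klk5 averaged 71.8 ± 9.07 CPM in Tnip1-/- skin against 70.5 ± 3.06 CPM in Tnip1+/+ skin (log2 fold change 0.03, edgeR adjusted p = 0.867). Casp14 (1.72), Ctsl (1.46) and Ctsd (1.01), proteases of cornification and of the lysosome, also rose. Spink5, whose product LEKTI inhibits epidermal kallikreins, averaged 1778 ± 313.3 CPM in Tnip1-/- skin against 1249 ± 10.2 CPM in Tnip1+/+ skin (log2 fold change 0.51, edgeR adjusted p = 0.049), and St14, the protease matriptase, had a log2 fold change of 0.48 (edgeR adjusted p = 0.0478). Both calls were marginal: Spink5 lost its call when Tnip1-/- replicate 2 or 3 or any Tnip1+/+ replicate was left out (log2 fold changes 0.41 to 0.53), and St14 when any Tnip1-/- replicate or Tnip1+/+ replicate 1 was left out (0.45 to 0.55). Klk11 (0.64), Asprv1 (0.72) and Klk10 (0.62) did not pass. Klk11 passed without Tnip1-/- replicate 3 (0.81) or Tnip1+/+ replicate 1 (0.84), and Asprv1 without Tnip1-/- replicate 1 (0.95). On all libraries both passed with the DESeq2 Wald test (adjusted p = 0.0292 for Klk11 and 0.0155 for Asprv1). Asprv1 also passed with edgeR without a filter (adjusted p = 0.0473).

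Of 9 adherens junction genes tested with edgeR, 4 rose, 0 fell (also 0 at an unadjusted p under 0.05, with the DESeq2 Wald test and with voom) and 5 did not pass, with a median log2 fold change of 0.57. The share called in either direction, 44.4%, is near that of all tested genes (45.1%). All 4 calls were in the same direction, however, while of all tested genes 22.3% were called higher and 22.7% lower. Pvrl1, the adhesion molecule nectin-1, averaged 57.7 ± 5.21 CPM in Tnip1-/- skin and 24.9 ± 6.20 CPM in Tnip1+/+ skin (SD, n = 3 each), a log2 fold change of 1.21 (edgeR adjusted p = 0.00405). Vcl, the actin-linking protein vinculin, rose with 0.52, Ctnnd1, p120-catenin, with 0.67 and Ctnnb1, the armadillo protein beta-catenin that is related to plakoglobin, with 0.66. Ctnnb1 averaged 726.6 ± 31.3 CPM in Tnip1-/- skin and 458.7 ± 100.9 CPM in Tnip1+/+ skin; its call was lost whichever Tnip1-/- replicate was left out (0.66 to 0.71), and that of Ctnnd1 without Tnip1-/- replicate 2 (0.63), which left 2 genes called higher. Cdh3 (0.90), Pvrl4 (0.57), Cdh1 (0.37), Ctnna1 (0.03) and Mllt4 (-0.28) did not pass. Without Tnip1+/+ replicate 3 Cdh3 passed (1.24), without Tnip1+/+ replicate 1 Pvrl4 passed (0.88), and without Tnip1+/+ replicate 2 Mllt4 passed as lower (-0.44). On all libraries Cdh3 passed with the DESeq2 Wald test (adjusted p = 0.0181), with voom (adjusted p = 0.0443) and with edgeR without a filter (adjusted p = 0.0482).

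For 3 of the genes, genes with the most similar pattern over the 6 libraries were found among 10351 genes averaging 10 CPM or more, by the Euclidean distance of log2 CPM centred on each gene's mean. Nearest to Dsg3 were Pqlc1 (distance 0.229), Gm11539 (0.285), Scarna6 (0.286), Eif6 (0.297) and Tubb2a (0.307), with log2 fold changes of 1.62 to 1.96. Nearest to Cdsn were Abca12, a lipid transporter of lamellar granules, at the smallest distance of those named (0.0881), then Bspry (0.209), Snx11 (0.213) and Gnb2 (0.221), with log2 fold changes of 0.84 to 0.90. For Dsg1a they were Cirbp (0.113), Emp2 (0.210), Ankrd35 (0.219), Paqr8 (0.220) and Usp54 (0.237), with log2 fold changes of -0.47 to -0.26. With 6 libraries, such likeness is a description.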

How the data were processed

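Each library has a deposited file of counts, whole numbers for each gene symbol, and these were used unchanged; per the labels' protocols, libraries were stranded, depleted of ribosomal RNA and made from total RNA of skin biopsies. Per the submitters' processing notes, build mm9 was used with R 3.2.3, HTSeq, STAR, BWA, limma and CASAVA 1.7. Their order and settings, the strand option and the annotation are not given in the sources used here. Beside 34590 gene symbols, a file has 5 summary lines, which took 26.7% to 28% of the Tnip1-/- files and 27.6% to 30.3% of the Tnip1+/+ files and did not enter any library size or test.

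The fit used edgeR 4.0.16 (R 4.3.3) with TMM factors of 0.898 to 1.095, the filterByExpr filter, a quasi-likelihood fit on genotype and Benjamini-Hochberg adjustment over 16691 genes, called at 0.05. The SE is the absolute log2 fold change divided by the square root of F. Count ratios used a pseudocount of 0.5 and an exact permutation test. Exon lengths and overlaps came from GENCODE on GRCm38, a later build than the files', and promoters from RefSeq on GRCm38.p6. Floors of 3 counts cover counting error only. Replicates of a genotype differed by more than sampling noise (33.1 to 134 chi-square units for each degree of freedom), so none was treated as a duplicate. On simulated data with 16542 genes, the fit recovered 56 of 100 genes changed by 1 and 100 of 100 changed by 2 on the log2 scale, with 7 false among 163 calls. The simulation gave every gene the same dispersion, changed no other genes and took none of the changed genes from the lowest levels. In the real data 45.1% of tested genes were called and spread differed between genes, so these rates do not carry over.

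The 10 genes, the lists and the tests were chosen with earlier results of these data known. Named are the 10 genes, Tnip1, every gene of the other desmosome, protease and adherens junction lists, up to 3 markers per list and the 5 nearest patterns to Dsg1a, Dsg3 and Cdsn, of which 1 is not reported here; Gm16090 and Gm10129 were named for their overlap. Not printed in the report were sebaceous (3 of 6 lower), fibroblast (2 of 6 lower), endothelial (1 of 5 higher, 2 lower), haemoglobin (3 of 4 higher) and heart markers (1 of 2 tested higher). Alternatives were the Wald test of DESeq2 1.42.0, its size factors, library totals, upper-quartile factors, limma 3.58.1 voom, robust dispersion, other filters, other library sizes, a replicate block, leaving out each library, and summed desmoglein 1 copies.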

Additional observations from a re-analysis of the deposited data

How the results depend on the processing

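Of 46 named genes followed through at least 16 alternatives each, 28 kept their sign and their side of the threshold in all of them. Among those called higher throughout were Dsg3 (log2 fold change 1.59 to 2.02), Dsc1 (0.89 to 1.17), Jup (0.83 to 1.27), Pkp1 (0.92 to 1.31) and Cdsn (0.69 to 1.07). Dsc3 (0.18 to 0.45) and Dsp (0.26 to 0.65) kept their sign and passed in none of the alternatives. The count of desmosome genes called higher was 5 to 6 when 1 library was left out, and the count called lower was 0 to 1. Library totals alone moved the median of all tested genes to -0.191 and upper-quartile factors moved it to -0.12; with totals, 34.1% of calls were higher (2490 higher and 4809 lower) against 49.6% with TMM factors (3730 and 3795), yet the desmosome genes still gave 6 higher and 1 lower. With totals, the call was also lost for Perp (0.61), St14 (0.31), Spink5 (0.36), Ctnnb1 (0.50) and Ctnnd1 (0.51), which left 2 adherens junction genes called higher; upper-quartile factors ended the calls of St14 (0.39) and Spink5 (0.43). When 1 library was left out, the adherens junction counts were 2 to 5 higher and 0 to 1 lower. Signs reversed for genes that did not pass: Dsg1a with its copies summed (0.33), Klk5 with totals (-0.127) or upper-quartile factors (-0.057), and Ctnna1 with the same scalings (-0.127 and -0.051). Without 1 library, Klk5 ran from -0.063 to 0.097, Ctnna1 from -0.014 to 0.102 and Ppl from -0.202 to 0.109. The cause of these shifts was not tested.

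Deviations of same-numbered libraries from their group means correlated at 0.0115, -0.209 and 0.193, so the numbers were not taken as pairs. With the number as a replicate block, 3323 genes were called higher and 3142 lower, and 5 desmosome genes higher and 1 lower; Dsc2 (1.43, edgeR adjusted p = 0.0991), Perp, St14 and Spink5 lost their calls. For the log2 ratios, the replicate block cannot change the difference of means with 3 complete pairs (-2.22 for Dsg1a to Dsg3 and 0.684 for Dsc1 to Dsc3) and says nothing of their stability. Leaving out 1 library gave -2.48 to -1.80 and 0.522 to 0.853.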
